A study of Homo sapiens with 62 samples.

Results

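Hepatic organoids of day 21 were compared with hepatic organoids of day 17, both of the genotype labelled WT and both grown in the condition labelled PN96, to ask how RNA levels differed between the later and the earlier day. The comparison took 4 of the 62 libraries of the series, 2 per day, chosen by these labels alone. All came from WIBR3, a line of human embryonic stem cells (hESC), and polyA RNA was sequenced. What PN96 stands for is not given in the labels. For values beside this comparison, the other hepatic libraries were used: CTR organoids of day 21 in PN96, organoids of day 21 in PN96 from 2 knockout clones of NEAT1, a long non-coding RNA, and WT organoids of day 17 in the condition labelled Chip, with 2 libraries in each group. No label names a batch, a differentiation run or a stock of cells for any library, so the day and the run in which an organoid was grown cannot be told apart, and whether both libraries of one group stem from independent cultures is not stated. The p-values therefore measure the spread between libraries of the same group, taken over all 12 hepatic libraries.

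In culture, hepatic organoids pass from definitive endoderm to hepatoblast-like cells, the bipotent progenitors that can give hepatocytes or bile duct cells. Hepatoblasts secrete alpha-fetoprotein (AFP), and as they mature into hepatocytes AFP falls while albumin, clotting factors and the enzymes of drug, bile acid and urea metabolism rise. Such cultures often also hold mesenchymal cells and cells that kept a progenitor state.

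The hepatic label matched its markers on both days in part. AFP was at 4227 and 1951 TPM (transcripts per 1000000, the authors' deposited unit, which sets every library to the same total) at day 21, and at 1962 and 3571 TPM at day 17. In the 4 libraries HNF4A, the nuclear receptor that defines hepatic endoderm, lay between 5.02 and 12.5 TPM, while its group means did not exceed 0.712 TPM in cortical, lung and hESC groups and 2.29 TPM in nephron groups. ALB reached 20.8 and 7.72 TPM at day 21 and 10.6 and 23.9 TPM at day 17. Genes of mature hepatocytes were at mixed levels. CYP7A1, the rate-limiting enzyme of bile acid synthesis, was listed at 0 in all 4 libraries, which may be a failed estimate in a table without counts. CYP3A4, the main drug-metabolising cytochrome P450 of the adult liver, reached at most 0.659 TPM. CYP27A1, another enzyme of bile acid synthesis, lay between 37.8 and 59.0 TPM and ASS1, of the urea cycle, between 62.5 and 116 TPM. Stem cell genes were present beside the hepatic ones, with POU5F1 at 84.0 and 103 TPM at day 21 and at 46.3 and 52.8 TPM at day 17.

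Few genes passed the test between the days. Of 20295 genes tested, 32 were called (0.158%), 13 of them higher at day 21 (0.0641%) and 19 lower (0.0936%), with limma on log2(TPM + 1), the spread taken from all 12 hepatic libraries and p-values adjusted by the method of Benjamini and Hochberg. A gene was tested where it reached 1 TPM in at least 2 of the 4 libraries, and rose or fell where the adjusted p was under 0.05. At an unadjusted p under 0.05 there were 2773 genes. The median log2 change over all genes tested was 0.04. Since TPM sets each library to one total, a general shift in RNA cannot show in it. With mitochondrial mRNAs left out of the total, 43 genes were called, 13 higher and 30 lower. Of the 32 genes, 24 had a symbol, and 29 differed at least 2-fold on the log2(TPM + 1) scale, which understates changes of genes with few TPM. Leaving out 1 of the 4 libraries leaves a lone library in a group, which is then assumed to vary like the other groups. The filter was kept in these fits, so CHCHD2 went untested without a library of day 17 and CXCL11 without one of day 21. Other called genes stayed in these fits, HEPH and S100A9 among them. Over 21 runs with other settings or 1 library left out, the log2 change ran from -5.21 to -3.20 for HEPH. It ran from 3.94 to 4.73 for S100A9, and no named gene that was called changed direction. With a lone library in a group, only the size of a change can be compared, not whether a call holds.

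**Figure D1:**
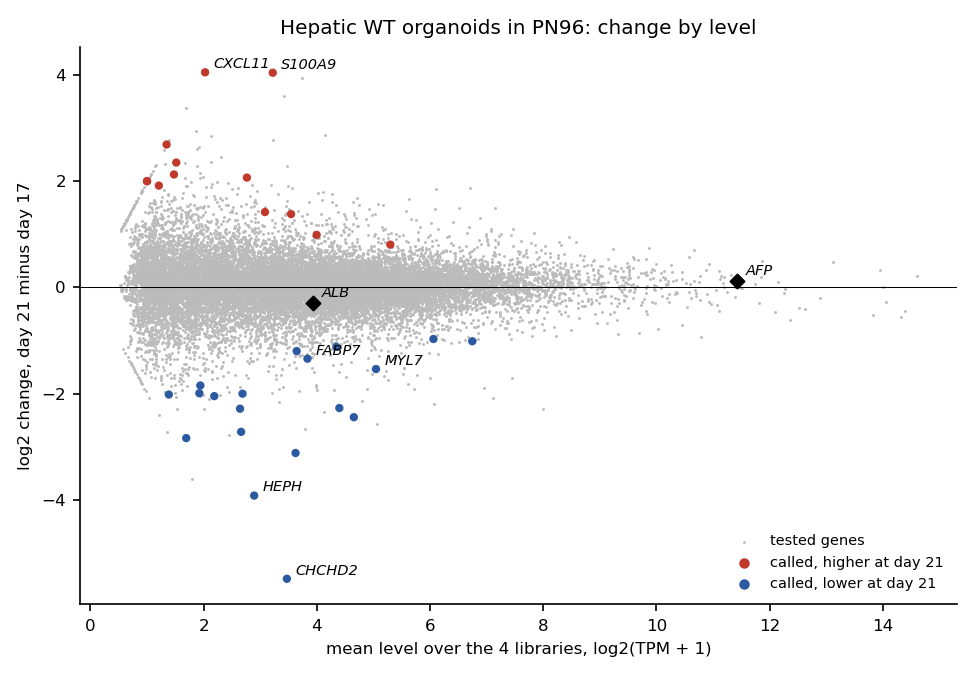
Log2 change of day 21 minus day 17 (vertical) against the mean level over the 4 libraries in log2(TPM + 1) (horizontal) for the 20295 genes tested. Called genes are red where higher and blue where lower at day 21; black diamonds mark AFP, with a log2 change of 0.12, and ALB, with -0.30, which lie inside the cloud, while CHCHD2 at -5.49 and CXCL11 at 4.05 lie at its edges.

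The 2 largest falls were of CHCHD2 and HEPH, and ECHDC3 and TMLHE, a pair of genes of fatty acid and carnitine metabolism, are given with them. CHCHD2, on chromosome 7 (GRCh38 56101569 to 56106576), encodes a small protein of the mitochondrial intermembrane space that is linked to the respiratory chain. It was at 0.426 and 0.920 TPM at day 21, against 70.2 and 76.7 TPM at day 17. Both libraries of day 21 were near 0 and both of day 17 were high, the largest fall of any called gene (log2 change -5.49 ± 0.42 SE, 44.9-fold lower, limma adjusted p = 0.0058). HEPH, on chromosome X (66162549 to 66268867), encodes hephaestin, a copper-dependent ferroxidase that helps iron leave intestinal cells. It was at 0.155 and 2.15 TPM at day 21, against 29.3 and 26.6 TPM at day 17 (log2 change -3.92 ± 0.39, 15.2-fold lower, limma adjusted p = 0.011). ECHDC3, a member of the enoyl-CoA hydratase family on chromosome 10, was at 0.201 and 0.216 TPM at day 21, against 6.21 and 9.37 TPM at day 17 (log2 change -2.84 ± 0.29, limma adjusted p = 0.011). TMLHE makes the first intermediate of carnitine synthesis, and carnitine carries fatty acids into mitochondria. It was at 0.514 and 1.39 TPM at day 21, against 7.41 and 5.82 TPM at day 17 (log2 change -1.99 ± 0.29, limma adjusted p = 0.045). Of 11 tested of 12 listed genes of fatty acid oxidation, ketone body formation and their control none was called, beside 0.158% of all genes, and the median log2 change was 0.07. Of 6 tested genes of iron and copper handling none was called either, with the ferritin light chain FTL at 4108 and 3829 TPM at day 21 and at 3125 and 3826 TPM at day 17.

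The promoters of the 2 largest falls and of the largest rise show how unlike these genes are in base composition, with each CG pair in capitals. The windows run from 250 bases before to 50 bases after the start of the gene as RefSeq gives it, and come from RefSeq on GRCh38.p14. CHCHD2 lies on chr7:56106427-56106726 on the minus strand, HEPH on chrX:66163997-66164296 on the plus strand and CXCL11 on chr4:76036021-76036320 on the minus strand, each written 5′ to 3′ along the gene.
CHCHD2: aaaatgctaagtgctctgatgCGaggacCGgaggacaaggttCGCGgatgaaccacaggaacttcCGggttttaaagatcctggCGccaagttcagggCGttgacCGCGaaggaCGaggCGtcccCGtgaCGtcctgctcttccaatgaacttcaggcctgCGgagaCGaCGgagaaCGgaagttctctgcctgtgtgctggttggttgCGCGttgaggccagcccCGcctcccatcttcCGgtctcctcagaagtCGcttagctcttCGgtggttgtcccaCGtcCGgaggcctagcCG
HEPH: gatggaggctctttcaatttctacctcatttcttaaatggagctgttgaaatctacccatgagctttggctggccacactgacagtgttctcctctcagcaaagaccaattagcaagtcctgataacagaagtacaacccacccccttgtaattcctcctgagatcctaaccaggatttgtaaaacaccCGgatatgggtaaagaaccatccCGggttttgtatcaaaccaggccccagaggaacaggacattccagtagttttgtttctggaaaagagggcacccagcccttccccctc
CXCL11: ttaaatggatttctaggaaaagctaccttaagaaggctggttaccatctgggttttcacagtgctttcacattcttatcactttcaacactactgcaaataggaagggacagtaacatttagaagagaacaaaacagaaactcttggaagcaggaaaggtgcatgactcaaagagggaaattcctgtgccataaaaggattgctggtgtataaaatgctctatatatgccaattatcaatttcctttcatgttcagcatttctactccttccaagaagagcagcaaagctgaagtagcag
The CHCHD2 window holds 26 CG pairs, that of HEPH 2 and that of CXCL11 0, beside a median of 14 over all 35116 promoters in the table. A window was found for 23 of the called genes. The 14 genes that fell had a median of 25 CG pairs, with a range of 2 to 48, and the 9 that rose a median of 16, with a range of 0 to 39, so both directions included promoters rich and poor in CG.

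Other falls were of glycan, signalling and muscle genes. FUT3, on chromosome 19, is the fucosyltransferase that makes Lewis blood group antigens. It was at 1.41 and 1.52 TPM at day 21, against 17.0 and 13.7 TPM at day 17 (log2 change -2.72 ± 0.28, limma adjusted p = 0.011). The antisense gene ENSG00000267709 overlaps FUT3 and was called lower as well, at 1.29 and 1.19 TPM at day 21 and at 8.42 and 8.13 TPM at day 17. Whether reads were counted by strand is not stated, so the reads of the pair cannot be told apart. TNFSF9, the ligand of the T cell receptor 4-1BB, was at 9.79 and 7.52 TPM at day 21, against 43.7 and 47.1 TPM at day 17 (log2 change -2.27 ± 0.23). NEURL1, a ubiquitin ligase named for the fly gene neuralized, was at 1.38 and 3.35 TPM at day 21, against 12.8 and 11.01 TPM at day 17. MYL7, the myosin light chain of the heart atrium, was at 22.8 and 14.8 TPM at day 21, against 53.4 and 57.2 TPM at day 17 (log2 change -1.54 ± 0.21, limma adjusted p = 0.034). In each of these genes both libraries of day 21 lay below both of day 17. FABP7, a fatty acid-binding protein of neural progenitors, was at 7.84 and 8.08 TPM at day 21, against 22.7 and 20.8 TPM at day 17. ZDHHC11, of the palmitoyltransferase family, was 2.30-fold and EBF4, of the early B cell factor family of transcription factors, 2.18-fold lower. ZDHHC11 has a close copy in the genome, so its reads are uncertain.

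Of the called zinc finger genes with a symbol, 3 that fell and 1 that rose are given here. ZFP42, known as REX1 and used as a marker of undifferentiated stem cells, was at 0.165 and 0.446 TPM at day 21, against 3.23 and 5.54 TPM at day 17 (log2 change -2.02 ± 0.30, limma adjusted p = 0.047). In this series it was low in undifferentiated cells too, at most 0.460 TPM in the 22 hESC libraries. ZNF114 was at 6.40 and 14.7 TPM at day 21, against 52.6 and 63.5 TPM at day 17 (log2 change -2.45 ± 0.31). Its antisense gene ZNF114-AS1 was at 2.51 and 7.58 TPM at day 21 and at 39.2 and 29.2 TPM at day 17 and missed the threshold (limma adjusted p = 0.059), and the same limit on strand applies. ZFP3 was at 0.879 and 1.19 TPM at day 21, against 5.87 and 6.74 TPM at day 17. ZNF558 went the other way, at 18.2 and 17.5 TPM at day 21, against 6.47 and 6.01 TPM at day 17 (log2 change 1.38 ± 0.19, limma adjusted p = 0.040). MCTS2P, an intronless copy of MCTS1 whose reads may be shared with that gene, was at 1.31 and 2.47 TPM at day 21, against 14.9 and 10.96 TPM at day 17.

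The 2 largest rises were of genes best known from immune responses. CXCL11, on chromosome 4 (GRCh38 76033682 to 76041415), encodes a chemokine that attracts T cells through the receptor CXCR3 and is induced by interferon. It was at 15.1 and 16.1 TPM at day 21 and listed at 0 in both libraries of day 17 (log2 change 4.05 ± 0.35, limma adjusted p = 0.0084). No fold is given, because a listed 0 may be a failed estimate: the glycolytic gene LDHA, which nearly every cell uses, was listed at 0 in 3 of these 4 libraries and at 0.117 TPM in replicate 2 of day 21. ART3, an ADP-ribosyltransferase family member whose gene spans CXCL11 on the opposite strand (76011184 to 76112802), was at 4.81 and 6.20 TPM at day 21, against 0.436 and 0.118 TPM at day 17 (log2 change 2.35 ± 0.35, limma adjusted p = 0.045). The reads of this pair cannot be told apart either. S100A9, a subunit of calprotectin that neutrophils and monocytes make in quantity, was at 39.8 and 34.3 TPM at day 21, against 1.25 and 1.35 TPM at day 17 (log2 change 4.04 ± 0.38, 16.5-fold higher, limma adjusted p = 0.011). SIGLEC6, a sialic acid-binding lectin of placenta and mast cells, was at 5.58 and 4.14 TPM at day 21, against 0.501 and 0.181 TPM at day 17. It and NEBL-AS1, at 2.90 and 3.12 TPM at day 21 and listed at 0 in both libraries of day 17, were under the level for named genes and were chosen after their values were seen.

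S100A8, the other subunit of calprotectin, was at 0.492 and 0 TPM at day 21 and at 1.60 and 0 TPM at day 17. PTPRC, the pan-leukocyte marker CD45, was listed at 0 in all 4 libraries, and of 5 tested blood genes of 7 listed none was called. Of 6 tested interferon response genes of 8 listed none was called either, with a median log2 change of 0.03. At 0.158% of all genes called, no call is to be looked for in lists of this size. ISG15, an interferon-induced ubiquitin-like protein, was at 48.8 and 52.9 TPM at day 21 and at 31.3 and 37.0 TPM at day 17 (limma adjusted p = 0.40). The smaller rises were of PLGRKT, a cell surface receptor for plasminogen, at 22.02 and 21.0 TPM at day 21 against 10.7 and 10.02 TPM at day 17, of TRMT1L, a tRNA methyltransferase homologue, at 48.9 and 53.2 TPM against 29.7 and 27.9 TPM, and of NQO2-AS1, a non-coding RNA, at 12.6 and 13.1 TPM against 4.41 and 3.97 TPM. In all 32 called genes the 2 days did not overlap, beside 27.4% of all genes tested that did not overlap and were higher and 20.7% that did not and were lower.

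**Figure D2:**
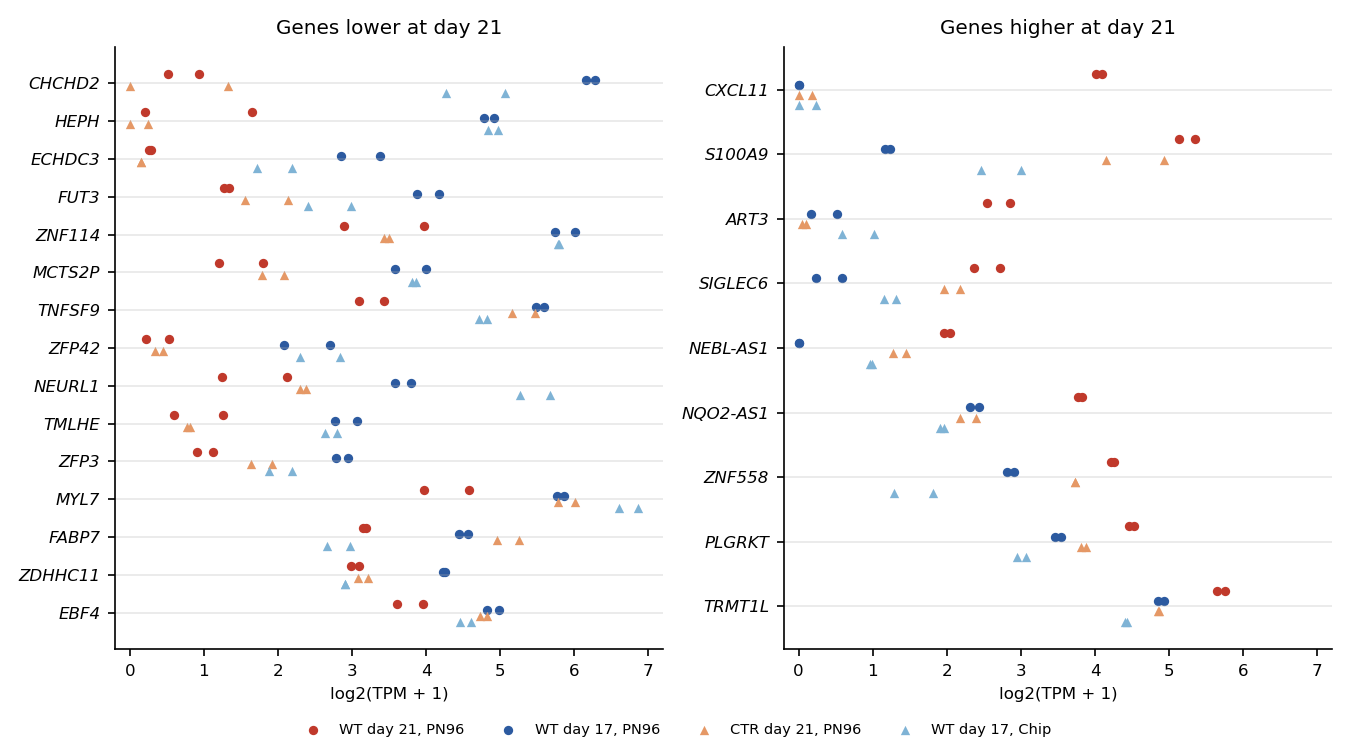
Level of the 24 called genes with a symbol in log2(TPM + 1) in each library of 4 hepatic groups, with circles for the compared WT groups in PN96 (red day 21, blue day 17) and triangles for CTR day 21 in PN96 (orange) and WT day 17 in Chip (light blue). CHCHD2, HEPH and ZFP42 were low in both groups of day 21 and higher in both of day 17, CXCL11 was above 15 TPM in WT day 21 and at or below 0.182 TPM in the other 3 groups, and FABP7 was higher in CTR day 21 than in Chip day 17.

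No listed hepatocyte gene passed the test. At 0.158% of all genes called, none is to be looked for in lists of this size, so nothing is read from their absence. Over 33 lists with 356 genes, 275 were tested and 2 were called, MYL7 and ZFP42, beside 0.158% of all genes tested. Of 14 plasma protein genes none was called, with a median log2 change of 0.08, and ALB changed by -0.30 ± 1.12 (95% interval -2.81 to 2.21, limma adjusted p = 0.93), so a rise or fall of more than 4-fold lies within its interval. FGA and FGG, chains of fibrinogen, were at 341 and 163 TPM and at 80.7 and 40.9 TPM at day 21, against 63.3 and 110 TPM and 16.9 and 20.7 TPM at day 17. Both days were apart in these genes, yet the adjusted p was 0.30 and 0.33 with limma. None was called of 9 apolipoprotein and lipoprotein genes, of 10 coagulation and complement genes, of 8 drug and alcohol enzymes, of 5 bile acid genes or of 9 genes of the urea cycle and amino acid breakdown. APOA1, the main protein of high-density lipoprotein, was at 1068 and 540.2 TPM at day 21 and at 725 and 1247 TPM at day 17. CPS1, the entry enzyme of the urea cycle, was at 24.6 and 14.9 TPM at day 21 and at 27.2 and 21.1 TPM at day 17. Of 14 liver transcription factors none was called, with a median log2 change of -0.29; NR1I3, the xenobiotic receptor CAR, was at 2.90 and 2.91 TPM at day 21 and at 6.16 and 6.19 TPM at day 17 (limma adjusted p = 0.13).

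The libraries of one day differed from each other in their hepatic and mesenchymal genes. All 14 plasma protein genes were higher in replicate 1 than in replicate 2 at day 21, whereas 1 of 14 was at day 17. Their summed level was 6369 and 2934 TPM at day 21 and 2904 and 5052 TPM at day 17, and the difference within each day was wider than that between the means of the days. Stellate cell and fibroblast genes were higher in replicate 1 in 12 of 13 genes on both days, and summed to 4116 and 1974 TPM at day 21 and to 6356 and 2803 TPM at day 17. COL1A1, the chain of type I collagen, was at 753 and 346 TPM at day 21 and at 1099 and 557 TPM at day 17. In bulk RNA, fewer cells of a type and less RNA per cell cannot be told apart.

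Of 8 pluripotency genes ZFP42 alone was called, and it fell. It was at most 0.460 TPM in the hESC libraries as well. Another 3 of the 8 genes lay higher in both libraries of day 21 without passing the test, beside 27.4% of all genes. TDGF1, a Nodal co-receptor of stem cells, was at 604 and 994 TPM at day 21 and at 419 and 528 TPM at day 17 (limma adjusted p = 0.77), and POU5F1, a core stem cell factor with the values given above, had an adjusted p of 0.62 with limma. The list summed to 1993 and 3129 TPM at day 21 and to 1657 and 2009 TPM at day 17. It summed to 1170 and 1316 TPM in CTR day 21, against 2629 and 2333 TPM in Chip day 17. Of 6 cardiac muscle genes, MYL7 fell and 3 more lay lower in both libraries of day 21, beside 20.7% of all genes, among them NKX2-5, a transcription factor of heart progenitors, at 0.749 and 0.577 TPM at day 21 and at 4.88 and 3.96 TPM at day 17 (limma adjusted p = 0.12). All 12 cell cycle genes had a positive log2 change, with a median of 0.52, and 10 did not overlap, beside 27.4% of all genes, but none was called. The list summed to 1675 and 1630 TPM in WT day 21, against 1100.2 and 1251 TPM in WT day 17. It lay the other way round between the CTR and Chip organoids, at 851 and 793 TPM in CTR day 21, against 1212 and 1169 TPM in Chip day 17. MKI67, the proliferation marker, was at 87.1 and 70.2 TPM at day 21 and at 41.4 and 51.3 TPM at day 17 (log2 change 0.75 ± 0.16, limma adjusted p = 0.12). Hypoxia and glycolysis genes had a like median of 0.52, with 9 of 11 tested genes not overlapping and higher, beside 27.4% of all genes. None of them was called, beside 0.158% of all genes. Mitochondrial mRNAs made up 15.5% and 15.3% of TPM at day 21, against 17.7% and 17.4% at day 17.

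**Figure D3:**
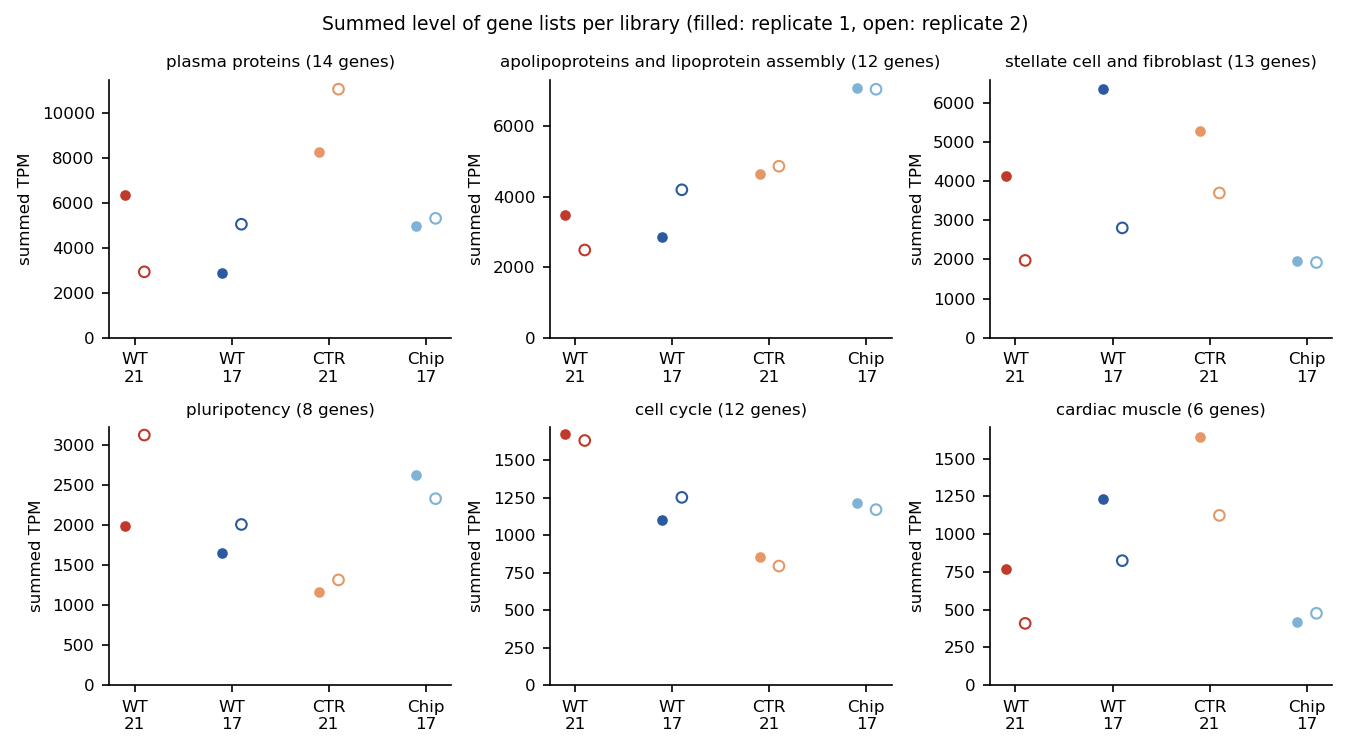
Summed TPM of 6 gene lists in each library of 4 hepatic groups, with filled circles for replicate 1 and open circles for replicate 2. Plasma proteins summed to 6369 and 2934 TPM in WT day 21 and to 2904 and 5052 TPM in WT day 17, so the days overlap, whereas the cell cycle list lies higher in both libraries of WT day 21.

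A second pair of groups with the same days shares no library with the first: CTR organoids of day 21 in PN96 and WT organoids of day 17 in Chip. Genotype label and condition differ there as well as the day, and both changes take their spread from the same 12 libraries. In it 4226 of 19759 genes were called (21.4%), 3259 higher at day 21 in CTR (16.5%) and 967 lower (4.89%), on a scale shifted by a median log2 change of 0.20. After rescaling by size factors the shift was -0.01 and the split 1737 higher and 1726 lower. Mitochondrial mRNAs made up 26.9% and 27.9% of TPM in Chip day 17, against 13.9% and 12.85% in CTR day 21. With them left out of the total, 1642 genes were called higher and 1863 lower, so the shares in each direction depend on the scale. Without 1 of the 2 libraries of Chip day 17 it called 958 or 954 genes, and without 1 of those of CTR day 21 it called 1049 or 1526. Of the 32 genes, 29 were tested there. Of 19 falls, 11 fell in it too, and of 10 tested rises 6 rose, relative to 4.89% and 16.5% of all genes. Over the 4 libraries of each day, 11 falls were lower in all of day 21 than in all of day 17, beside 2.85% of all genes, and 8 rises were higher, beside 7.37%. These counts include the compared libraries, which the calls already separate, so nothing is read from them. CHCHD2 was at 0 and 1.52 TPM in CTR day 21, against 18.2 and 32.5 TPM in Chip day 17 (limma adjusted p = 0.0012). HEPH was at 0 and 0.182 TPM in CTR day 21, against 30.3 and 27.5 TPM in Chip day 17, and ZNF114 at 9.80 and 10.3 TPM, against 53.8 and 54.4 TPM. S100A9 was at 29.7 and 16.8 TPM in CTR day 21, against 7.01 and 4.53 TPM in Chip day 17, and ZNF558 at 12.3 and 12.3 TPM, against 1.43 and 2.50 TPM.

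CXCL11 and ART3 were not tested in the second pair, because CXCL11 was at 0 and 0.135 TPM in CTR day 21 and at 0 and 0.182 TPM in Chip day 17, and ART3 between 0.0357 and 1.02 TPM. Both CTR libraries of day 21 were thus as low in CXCL11 as the libraries of day 17. The 4 hepatic knockout libraries of day 21 lay between 2.54 and 12.1 TPM and the 22 hESC libraries between 3.37 and 20.4 TPM, a range that holds the WT libraries of day 21.

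The test of the difference between both changes, added after the data were seen, called 12 of the 29 genes. FABP7 was the only called gene that moved in opposite directions with both changes called, at 37.2 and 30.2 TPM in CTR day 21, against 6.86 and 5.35 TPM in Chip day 17 (log2 change 2.29, difference of the changes -3.63 ± 0.25, limma adjusted p = 0.0021). TNFSF9 fell in WT organoids and was at 43.2 and 34.8 TPM in CTR day 21, against 25.2 and 27.2 TPM in Chip day 17 (difference -2.82 ± 0.33, limma adjusted p = 0.0073).

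**Figure D4:**
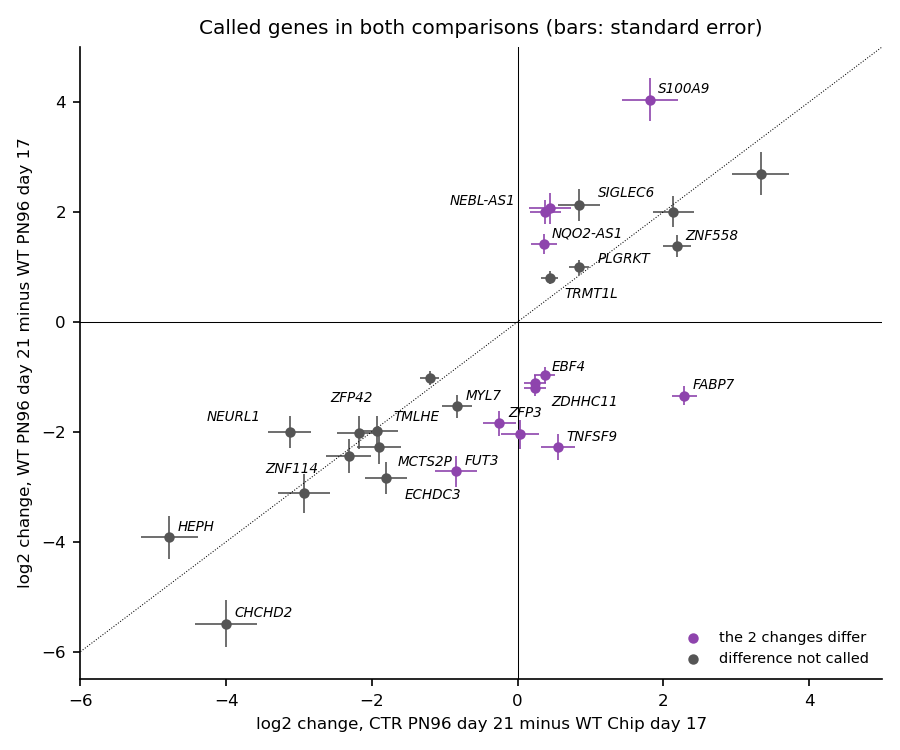
Log2 change ± SE of WT day 21 minus WT day 17 in PN96 (vertical) against that of CTR day 21 in PN96 minus WT day 17 in Chip (horizontal) for the 29 called genes tested in both, with purple for the 12 genes whose changes differ at an adjusted p under 0.05 and grey for the rest. HEPH and CHCHD2 lie at the lower left, on either side of the dotted line of equal change, and FABP7 lies at the lower right with -1.34 and 2.29.

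Across the whole series, several of the falls were in genes that separated the other WT organoids from the CTR, knockout and hESC libraries. In 12 libraries of other WT organoids (cortical in 3 conditions, nephron of day 7, lung of day 20 and hepatic in Chip), CHCHD2 lay between 18.2 and 208 TPM. It lay between 0 and 1.63 TPM in 8 CTR organoid libraries, between 0 and 1.19 TPM in 16 knockout organoid libraries and between 0 and 1.43 TPM in 22 hESC libraries, and the WT hepatic libraries of day 21, at 0.426 and 0.920 TPM, lay within those ranges. In lung organoids of nearly the same day, CHCHD2 was at 0 and 0.316 TPM in CTR of day 19, against 84.0 and 86.6 TPM in WT of day 20. Of the 20295 genes, 5 (0.0246%) were higher in all 12 of those WT libraries than in all 46 CTR, knockout and hESC libraries, and 3 of these 5 were among the 19 falls: CHCHD2, MCTS2P and TMLHE. The genes tested and the falls were both chosen by levels in the compared libraries, and a fall is high in WT day 17 by its call. Nothing is therefore read from this share. MCTS2P lay between 13.0 and 34.3 TPM in the 12 WT libraries and at most at 7.33 TPM in the 46, and TMLHE between 2.91 and 8.83 TPM and at most at 2.36 TPM. The limit on reads shared with MCTS1 applies to MCTS2P here too. ECHDC3 and HEPH had the same pattern with an overlap, from 0.397 and 2.62 TPM upward in the WT libraries and up to 0.805 and 6.49 TPM in the 46. For these 5 genes, WT hepatic organoids of day 21 thus had the levels of CTR, knockout and hESC libraries, not those of the other WT organoids. These genes were picked from the called ones after their values were seen. The day and any other property that sets WT day 21 apart from the other WT organoids cannot be told apart for them.

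Among the rises, 1 separated the libraries in the mirrored way: ENSG00000249803 lay between 0 and 0.688 TPM in the 12 WT libraries and at 0.919 TPM or more in the 46, with 3.05 and 3.98 TPM in WT hepatic organoids of day 21. The remaining called genes overlapped between these sets of libraries. ZFP42 was listed at 0 at the median of the 12 WT libraries and reached 6.18 TPM there, in the Chip hepatic organoids, and was at most 0.463 TPM in CTR, knockout and hESC libraries. Taking all hepatic organoids, 11 of the 19 falls were lower in every one of the 8 libraries of day 21 (WT, CTR and knockout) than in all 4 of day 17, beside 1.54% of all genes, and 6 of the 13 rises were higher, beside 2.86%. These libraries too include the compared ones. ZNF114, NEURL1 and ZFP42 were among those falls, and ZNF558 and PLGRKT among those rises.

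**Figure D5:**
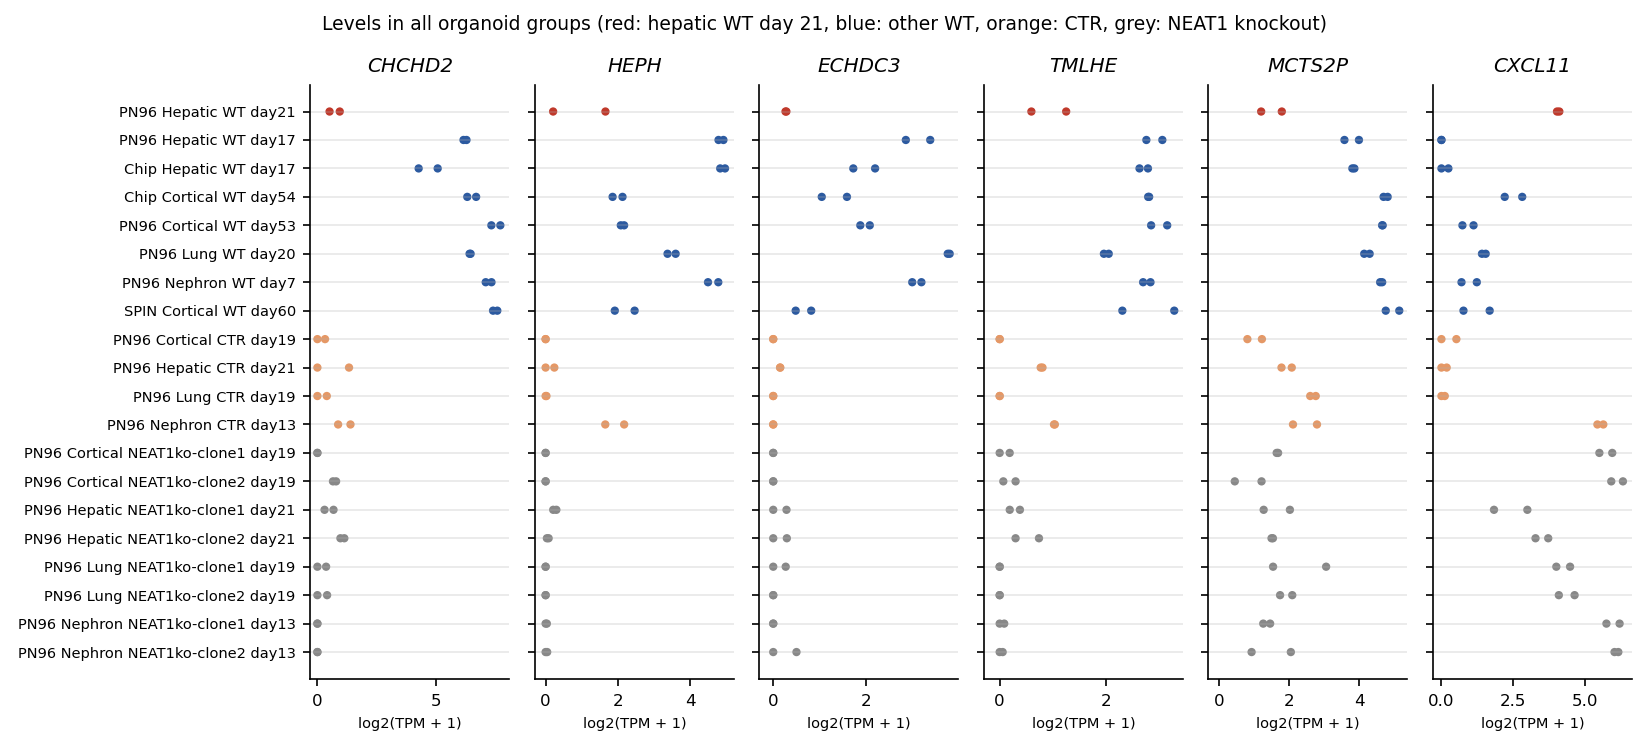
Level in log2(TPM + 1) of 6 called genes in both libraries of every organoid group of the series, with WT hepatic day 21 in red at the top, other WT groups in blue, CTR in orange and NEAT1 knockout clones in grey. CHCHD2, TMLHE and MCTS2P were higher in every other WT library than in every CTR and knockout library, with WT hepatic day 21 among the low ones. CXCL11 reached up to 77.8 TPM in knockout organoids and up to 48.1 TPM in CTR organoids.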

How the data were processed

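The series holds 62 polyA RNA-seq libraries in 31 groups, 2 in each. Per the submitters' processing notes, FastQC 0.11.9, Trim Galore 0.6.7, cutadapt 4.1, STAR 2.7.10a, featureCounts 2.0.1, DESeq2 1.36.0 and R 4.2.0 were used, with GRCh38. The values used are TPM as deposited by the authors, for 37415 genes, each library summing to 1000000; depth per library is unknown, so no counting interval is given. The authors' DESeq2 tables of other comparisons were not used. Each column was assigned to its group by its title, and no pair of hepatic libraries was identical.

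Group means of the 12 hepatic libraries (6 residual degrees of freedom) were fitted on log2(TPM + 1) by limma 3.58.1 (R 4.3.3), with moderation that follows the mean level, two-sided; the code was tested on simulated data. Gene types and positions came from GENCODE release 29. Named were ALB and AFP; the 12 largest rises and falls among called genes with a unique symbol, a mean of at least 5 TPM in the higher group and no overlap; and per list up to 4 called members or else the first 2. Other genes were named after their values were seen. The comparison and the 33 lists were chosen with earlier results of these data known. Alternatives were another pseudocount, filter, scaling or set of libraries, a replicate block and leaving out each library.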

Additional observations from a re-analysis of the deposited data

Results flagged for a closer look

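In 12 called genes the change of WT day 21 minus WT day 17 in PN96 differed from that of CTR day 21 in PN96 minus WT day 17 in Chip, by a test of the difference in one limma fit that was added after the data were seen. The genotype label and the condition differ in the second pair as well as the day, and their part in these differences was not tested. The difference was -3.63 for FABP7, -2.82 for TNFSF9, -2.08 for ENSG00000267709, -1.88 for FUT3, -1.60 for ZFP3, -1.44 for ZDHHC11, -1.36 for EBF4 and -1.34 for ENSG00000260107. In FUT3 and ZFP3 both changes were negative and that in WT was the larger. It was 2.23 for S100A9, 1.63 for ENSG00000277299, 1.62 for NEBL-AS1 and 1.06 for NQO2-AS1, which had a positive change in both pairs and the larger one in WT.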

How the results depend on the processing

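The 32 genes called between WT day 21 and day 17 became 19 with a pseudocount of 0.1, 2 with only the 4 compared libraries (S100A9 and CHCHD2), 165 with the 8 hepatic WT and CTR libraries and 1409 with all 62 libraries in the fit. Leaving out each library gave 0 to 53. It gave 11 without either library of Chip day 17 or of CTR day 21, 42 without either library of the first knockout clone, and 53 or 52 when a library of the other clone was left out. Without a filter 48 genes were called, with a filter of 5 TPM 25, with size factors 35 (11 higher, 24 lower), and without mitochondrial mRNAs 43 (13 higher, 30 lower). For the second pair, 4226 became 6959 with only its 4 libraries and 7496 with all 62, and leaving out each library gave 954 to 5068. A replicate block gave 35 genes, 24 of them shared with the 32, and 4869 in the second pair. Replicate numbers did not meet the rule for pairing, a correlation of same-numbered deviations over 0.1 in every pair of groups: over 15 pairs of hepatic groups it ran from -0.03 to 0.26, with 6 over 0.1, among them the compared groups at 0.14. No named gene that was called reversed under any alternative run, and each lost its call under at least 2 of them. NEURL1 lost it under 14 of 21 runs and CHCHD2 under 2 of the 19 in which it was tested. In the 2 runs without a library of day 17 CHCHD2 missed the filter and was not tested, so it had no call there either. With 2 libraries a group the calls rest on the spread lent by other hepatic groups, and why they differ between settings was not tested.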

Other observations

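Some genes narrowly missed the threshold of 0.05 and are given as values only, chosen after they were seen. ISL1, a transcription factor of heart, pancreas and motor neuron progenitors, was at 25.97 and 15.4 TPM at day 21, against 82.7 and 58.3 TPM at day 17 (limma adjusted p = 0.059). FOXQ1, a forkhead transcription factor of epithelia, was at 4.03 and 3.64 TPM at day 21, against 10.5 and 12.3 TPM at day 17 (limma adjusted p = 0.061). NTF3, the neurotrophin ligand of TrkC, was at 4.12 and 2.83 TPM at day 21, against 11.2 and 9.25 TPM at day 17 (limma adjusted p = 0.063), and FGF18 at 2.63 and 2.25 TPM, against 7.51 and 6.38 TPM (limma adjusted p = 0.070).

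CTH, which makes cysteine from cystathionine, was at 25.95 and 38.0 TPM at day 21, against 77.8 and 62.7 TPM at day 17 (limma adjusted p = 0.067). UGT8, the enzyme of galactosylceramide synthesis, was at 25.3 and 26.5 TPM at day 21, against 11.1 and 12.8 TPM at day 17 (limma adjusted p = 0.059). HCCS, which attaches heme to cytochrome c in mitochondria, was at 54.9 and 48.5 TPM at day 21, against 27.7 and 28.5 TPM at day 17 (limma adjusted p = 0.065), and ASPM, a spindle pole protein of dividing cells, at 69.1 and 58.8 TPM, against 31.3 and 32.4 TPM (limma adjusted p = 0.067). In each of these genes the 2 days did not overlap.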
